A study of Mus musculus with 6 samples.

Results

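The integrated stress response was followed through 10 mouse genes: the kinases that phosphorylate the translation factor eIF2 on its alpha subunit (Eif2ak1, Eif2ak2, Eif2ak3 and Eif2ak4), the regulatory subunits of the phosphatase that reverses the mark (Ppp1r15a and Ppp1r15b), the transcription factors Atf4 and Ddit3, and the target genes Asns and Trib3. They were taken by gene symbol from a table of ribosome footprint density with 22770 rows. Of the 10, 8 have a row; Eif2ak3 and Trib3 are not analysed here. The mean over all libraries reached 1 FPKM (fragments per unit of transcript length, scaled to the library's mapped fragments) for 7 of the 8, which were tested, and Ppp1r15b lay below that level.

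Ribosome footprints, the RNA pieces that ribosomes protect from nuclease, were read out in round spermatids, haploid germ cells of the mouse testis that have finished meiosis. The 2 groups were wild type and Eif5a SKO, each with replicates 1, 2 and 3. EIF5A is a translation factor that helps ribosomes through difficult stretches of coding sequence. The labels do not spell out SKO, which is cKO in the column names. No promoter behind a Cre, strain or age is stated in the labels. The series design text, written for another assay of the same study, speaks of 3 mice per group; nothing ties the libraries to single animals, so p-values here reflect only how these samples varied, which may be technical.

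When a kinase of this pathway is active, phosphorylated eIF2 blocks its own exchange factor eIF2B, and initiation slows on most mRNAs. A few mRNAs with short upstream open reading frames, Atf4 foremost, are then translated more, and ATF4 protein switches on genes for amino acid supply, for CHOP (encoded by Ddit3) and for the feedback subunit PPP1R15A. Each kinase answers to another cue: EIF2AK1 to heme shortage and mitochondrial stress, EIF2AK2 to double-stranded RNA, EIF2AK3 to unfolded protein in the endoplasmic reticulum, and EIF2AK4 to uncharged tRNA and stalled ribosomes. Footprints per gene are given as 1 value, so footprints on an upstream reading frame and on the main coding sequence of Atf4, Ddit3 or Ppp1r15a are not told apart. Footprint density also follows the amount of mRNA, which is not analysed here.

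Eif5a itself, which checks the labels, had 48.3 ± 13.9 FPKM in wild-type cells, against 2.25 ± 0.642 FPKM in SKO cells (SD, n = 3 per group; limma adjusted p = 0.00641). Absolute depth is unknown. The most common ratio between libraries among low genes, those below 1 FPKM throughout, put the libraries at 0.502 to 1 of the deepest one, SKO replicate 1. SKO replicate 2 was the shallowest. The smallest value above 0 of a median low gene, with depths aligned, was 0.137 FPKM in the deepest and 0.272 FPKM in the shallowest library. If that value stands for 1 read, which was not tested and varies with transcript length, densities under 1 FPKM rest on few reads. All 12 round spermatid markers had rows, none at 0 in any library, and summed to 812 to 1478 FPKM in wild-type cells, against 998 to 2121 FPKM in SKO cells.

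None of the 7 tested stress response genes passed the genotype test (limma on log2(FPKM + 1), Benjamini-Hochberg adjusted over 15578 rows, threshold 0.05), against 0.128% of all tested rows (0.109% higher and 0.0193% lower in SKO). The share of all rows called was 1.02% under TMM-type scaling, 2.88% after quantile normalization and 1.31% among rows whose mean reached 5 FPKM. None of the 7 passed there either; at the minimum of 5 FPKM, 2 of them, Asns and Ddit3 (its libraries listed at 0 counted as 0), were tested. At an unadjusted p under 0.05 there was 1 of the 7, Asns, against 11% of all tested rows. The median difference of the 7 was 0.27 on the log2 scale, beside a median of 0.13 over all tested rows, which TMM-type scaling moved to 0.0025. The count of 0 also held in each of the 15 alternative settings. These called 4 to 448 rows of the whole table, so 0 among 7 genes lies near the share over all rows. The kinases, the phosphatase subunits and Atf4 had means below the median of the tested protein-coding rows, which leave out rows with a mean under 1 FPKM. That median was 4.25 FPKM, and of the 8 genes only Asns had a mean above it, with Ddit3 left aside because it is listed at 0 in 2 libraries. Atf4, with a mean of 2.77 FPKM, and Eif2ak1, with 2.19 FPKM, lay above the lower quartile of 2.09 FPKM.

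**Figure D1:**
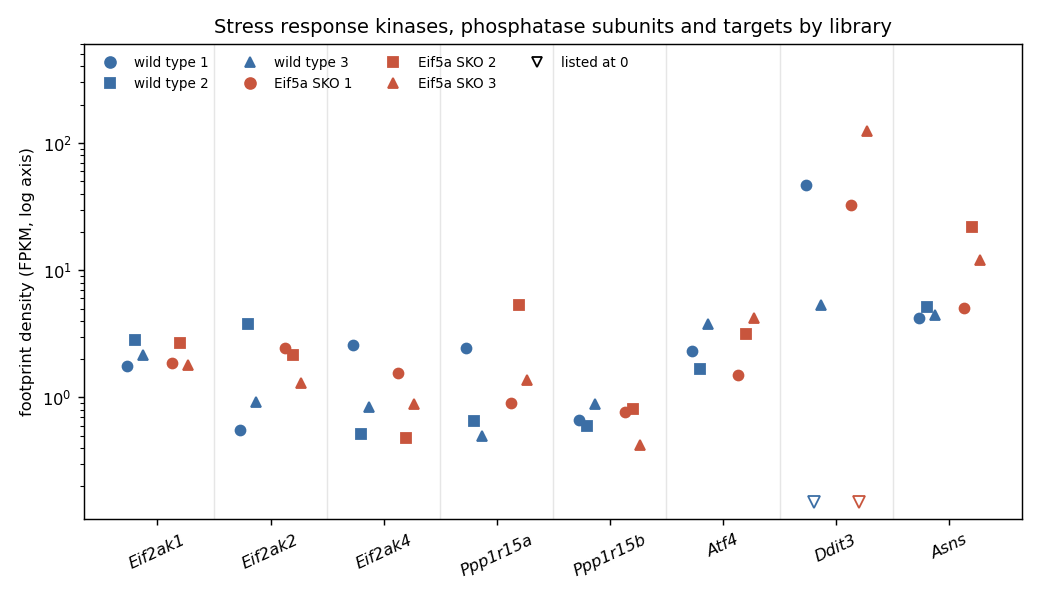
Footprint density in FPKM (log axis) of the 8 genes with a row, each point 1 library, wild type in blue and Eif5a SKO in red; open triangles mark values listed at 0. Wild-type and SKO points overlap for every gene; Asns is highest in SKO replicates 2 and 3, and Ddit3 spans from 0 to 125 FPKM.

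Among the kinases, Eif2ak1 (also called Hri; GRCm38 chromosome 5, 143817792 to 143902717) was the steadiest. It had 1.78, 2.85 and 2.17 FPKM in wild-type replicates 1, 2 and 3 and 1.87, 2.69 and 1.79 FPKM in SKO replicates 1, 2 and 3. The highest and the lowest of the 6 values both belong to wild-type libraries, so the SKO values lie within the wild-type range. The SKO minus wild-type difference was -0.07 on the log2 scale (SE 0.33, 95% interval -0.81 to 0.67, limma adjusted p = 0.970). Its within-group SD of 0.23 on the log2 scale stood at the 9.61 percentile of 3360 protein-coding rows of like density, whose median was 0.46. The gene overlaps Ankrd61 over 4431 bases, which had 12.3 to 36.4 FPKM; whether counting used strand is not stated.

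Eif2ak2, the kinase known as PKR (chromosome 17, 78850504 to 78882572), varied more within wild type than between genotypes. Its values were 0.557, 3.78 and 0.915 FPKM in wild-type cells, against 2.45, 2.14 and 1.29 FPKM in SKO cells. Wild-type replicate 2 was the highest of all 6 libraries and wild-type replicate 1 the lowest. The difference was 0.27 (95% interval -0.77 to 1.31, limma adjusted p = 0.885), and it turned to -0.053 without wild-type replicate 1. A transcribed pseudogene, Gm6548, overlaps 2041 bases of the gene and had 12.3 to 34.2 FPKM, so the Eif2ak2 values are uncertain where reads are shared. Without wild-type replicate 2 the difference was 0.76.

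Eif2ak4 encodes GCN2, the sensor of uncharged tRNA and of stalled ribosomes (chromosome 2, 118388583 to 118475234). It had 2.59, 0.517 and 0.834 FPKM in wild-type cells, against 1.57, 0.476 and 0.894 FPKM in SKO cells. Replicate 1 was the highest library in both genotypes and replicate 2 the lowest. The difference was -0.16 (95% interval -1.13 to 0.81, limma adjusted p = 0.932), and it turned to 0.21 without wild-type replicate 1 and to 0.035 without SKO replicate 2. GCN1, the ribosome-bound partner that GCN2 needs for activation, stood at a higher density: Gcn1 had 11.3, 33.7 and 24.6 FPKM in wild-type cells, against 6.39, 11.98 and 8.83 FPKM in SKO cells. Only SKO replicate 2 reached into the wild-type range. Its difference of -1.18 (95% interval -2.21 to -0.14) did not pass (limma adjusted p = 0.394, unadjusted p = 0.0297).

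The phosphatase subunits were sparse as well. Ppp1r15a encodes GADD34, the subunit that stress induces (chromosome 7, 45522917 to 45526268). It had 2.44, 0.652 and 0.494 FPKM in wild-type cells, against 0.902, 5.36 and 1.36 FPKM in SKO cells. One library per genotype stood above the others, replicate 1 in wild type and replicate 2 in SKO, and the groups overlapped. The difference was 0.58 (95% interval -0.60 to 1.77, limma adjusted p = 0.724), and 0.056 without SKO replicate 2. The gene overlaps 730 bases of Tulp2, which had 52.2 to 164 FPKM. Ppp1r15b encodes CReP, the constitutive subunit (chromosome 1, 133131166 to 133139800), and had 0.668, 0.597 and 0.890 FPKM in wild-type cells, against 0.764, 0.815 and 0.425 FPKM in SKO cells. No library reached 1 FPKM. In the fit with no filter on low values its difference was -0.05 (95% interval -0.60 to 0.50, limma adjusted p = 0.980).

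Atf4, the central transcription factor of the response (chromosome 15, 80255184 to 80257545), had 2.32, 1.67 and 3.76 FPKM in wild-type cells, against 1.49, 3.14 and 4.23 FPKM in SKO cells. SKO replicate 1 was the lowest library and SKO replicate 3 the highest, with the wild-type values between them. The means were 2.58 ± 1.07 FPKM and 2.95 ± 1.38 FPKM (SD, n = 3 per group). The difference of 0.12 (SE 0.40, limma adjusted p = 0.949) was -0.0095 relative to the median of all tested rows, and its sign was negative under TMM-type scaling. The 95% interval, -0.78 to 1.02, corresponds to 0.582-fold to 2.02-fold on the log2(FPKM + 1) scale, which understates the change of low genes. Its within-group SD of 0.49 was close to the median of 0.48 among protein-coding rows of like density.

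Ddit3 encodes CHOP, a transcription factor of prolonged stress (chromosome 10, 127290793 to 127296291). It had 46.4, 0 and 5.28 FPKM in wild-type cells, against 32.3, 0 and 125 FPKM in SKO cells. Replicate 2 is listed at 0 in both genotypes, where the deposited figures lie below 1e-06 without being exact zeros. Such near-zero figures occur in 336 rows of the table, and in 2 of these rows, Ddit3 included, another library reached at least the Ddit3 maximum. A value listed at 0 can be a failed estimate, so no group mean is given; the fit took these values as 0. In the other 4 libraries the values of the genotypes overlapped. The difference was 1.27 with a 95% interval of -2.63 to 5.17 (limma adjusted p = 0.845), and it turned to -0.21 without SKO replicate 3 and to -0.10 without wild-type replicate 2, and was 3.27 without SKO replicate 2. Within-group spread was larger than in 99.9% of protein-coding rows of like density. The gene overlaps Mbd6 over 77 bases, at 1.16 to 7.62 FPKM, and Mars1 over 71 bases, at 0.964 to 7.78 FPKM.

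**Figure D2:**
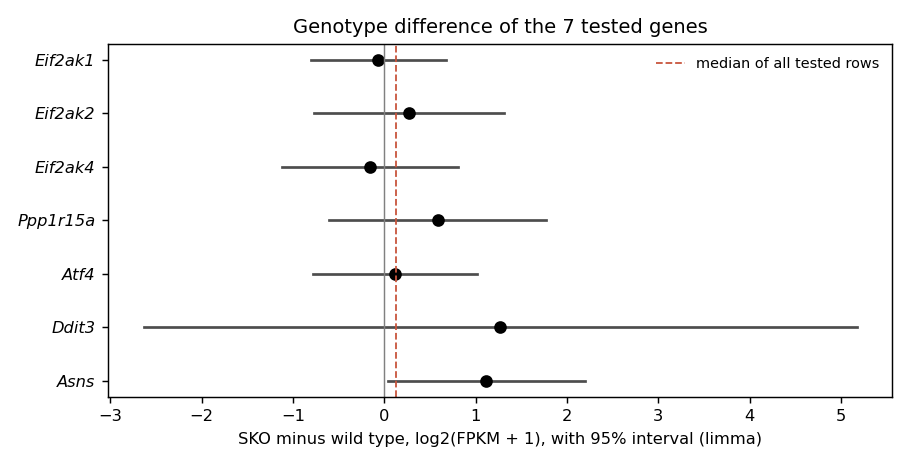
SKO minus wild-type difference on the log2(FPKM + 1) scale for the 7 tested genes, with points for the limma estimate and bars for its 95% interval; the dashed line is the median of all tested rows, 0.13. The bar of Asns runs from 0.03 to 2.20, those of the other 6 genes include 0, and the bar of Ddit3 is the widest.

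Asns encodes asparagine synthetase, which makes asparagine from aspartate and is a standard readout of ATF4 activity. The gene lies on chromosome 6, 7675165 to 7693209. It had 4.22, 5.15 and 4.47 FPKM in wild-type cells, against 5.04, 22.0 and 11.9 FPKM in SKO cells. SKO replicates 2 and 3 lay above all wild-type libraries, while SKO replicate 1 lay below wild-type replicate 2. The means were 4.61 ± 0.483 FPKM and 13.0 ± 8.53 FPKM (SD, n = 3 per group). The difference was 1.12 (SE 0.48, 95% interval 0.03 to 2.20), higher in SKO but not past the test (limma adjusted p = 0.443, unadjusted p = 0.0444). It was 0.66 without SKO replicate 2 and 1.62 without SKO replicate 1, with a limma adjusted p of 0.168 at the lowest.

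The rank of a gene within its own library does not depend on how the libraries are scaled. Among 11105 tested protein-coding rows, Asns stood at the 56.2, 58.6 and 50.4 percentile in wild type and at the 59.5, 81.3 and 74.9 percentile in SKO. By this measure its groups did not overlap, which held for 12.3% of these rows in the same direction and for 24.3% in either. The groups overlapped for the other 6 tested genes. Atf4 ran from the 19.4 to the 49.1 percentile, Eif2ak1 from 22.0 to 40.9, and Ppp1r15b, placed on the same scale, from 1.48 to 9.05.

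**Figure D3:**
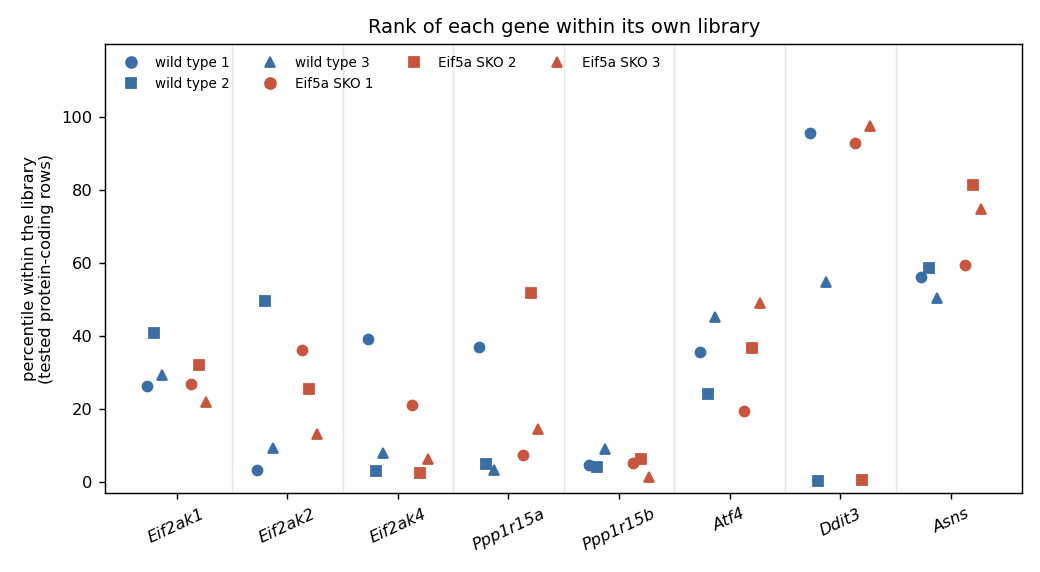
Percentile of each gene among the 11105 tested protein-coding rows of the same library, each point 1 library, wild type in blue and Eif5a SKO in red. All 3 SKO points of Asns lie above its wild-type points; in each other gene the colours mix, and Ddit3 runs from 0.486 to 97.6.

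The promoter of Asns is shown because that gene had the largest difference among the tested members with no library listed at 0 and because ATF4 is known to act there through a C/EBP-ATF response element. The sequence holds the 250 bases before the RefSeq start (GRCm38.p6, chr6:7693210-7693459, minus strand, written 5′ to 3′), with the letters of the element searched, TGATGNAA on either strand, in capitals. The match begins 23 bases before the start.
Asns: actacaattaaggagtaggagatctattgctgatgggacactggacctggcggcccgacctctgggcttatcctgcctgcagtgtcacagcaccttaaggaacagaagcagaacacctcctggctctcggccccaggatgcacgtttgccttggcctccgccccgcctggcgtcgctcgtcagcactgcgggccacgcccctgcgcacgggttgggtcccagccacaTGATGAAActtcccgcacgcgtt

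RefSeq windows from 250 bases before to 50 after the start were at hand for 9 of the 10 genes, all but Ppp1r15b. TGATGNAA occurred in 2 of the 9, Asns and Trib3, and in 4.13% of the 17491 protein-coding genes with a window. The cyclic AMP response element TGACGTCA, a palindrome to which ATF and CREB proteins bind, occurred in 1 of the 9, Ppp1r15a, and in 2.54% of the protein-coding genes. Among ATF4 and CHOP targets other than Asns and Trib3, TGATGNAA was present in 10 of 33 genes, and among tRNA synthetase genes in 5 of 8. Windows of 30 bases around the match are set side by side, with the match in capitals (GRCm38.p6; Trib3 chr2:152344028-152344057, Ppp1r15a chr7:45526262-45526291, Slc7a11 chr3:50443661-50443690, Tars chr15:11399655-11399684 and Herpud1 chr8:94386306-94386335, each on the strand of the gene). Slc7a11 holds a second match, not shown. In Trib3, Tars and Herpud1 the element reads in the opposite orientation. Of the members shown, Trib3 was not tested, and Ppp1r15a had a difference of 0.58. Beside them stand other tested genes: Slc7a11, a cystine transporter, with a difference of -0.0017, Tars, threonyl-tRNA synthetase, with 0.46, and Herpud1, a component of protein disposal from the endoplasmic reticulum, with 0.70. None of the tested genes shown passed.
Trib3: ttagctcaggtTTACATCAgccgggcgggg
Ppp1r15a: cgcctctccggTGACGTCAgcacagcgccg
Slc7a11: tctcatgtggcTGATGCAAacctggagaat
Tars: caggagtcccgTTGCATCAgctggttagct
Herpud1: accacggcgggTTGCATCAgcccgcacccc

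Of the 17 genes of these 3 lists with TGATGNAA in the window, 10 were tested. None passed, and 5 had a difference above 0 and 5 below, beside 59.4% above 0 over all tested rows. The median was 0.13, beside 0.13 for all tested rows. The 23 tested genes of the same lists without TGATGNAA also had a median of 0.13. This split was chosen after the values were seen.

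The wider pathway was read from 6 lists with 73 tested rows, of which none passed (limma, lowest adjusted p = 0.295) and 7 had an unadjusted p under 0.05, which is 9.59%, beside 11% of all tested rows. Lowest under TMM-type scaling was an adjusted p of 0.122. Of 38 further ATF4 and CHOP targets, 26 had a row and 21 were tested. Of the 21, 12 had a difference above 0, beside 59.4% of all tested rows, and the median was 0.10, or -0.021 under TMM-type scaling. The gene of this list with the smallest p was Slc3a2, the heavy chain that carries amino acid transporters to the membrane. It had 26.4, 21.5 and 15.5 FPKM in wild-type cells, against 38.8, 54.3 and 58.3 FPKM in SKO cells, with no overlap, which held for 15.7% of all tested rows in either direction. Its difference was 1.23 (95% interval 0.36 to 2.09, limma adjusted p = 0.295). Mthfd2, a mitochondrial folate enzyme, had 12.5 ± 5.36 and 16.0 ± 3.43 FPKM (wild type and SKO, SD, n = 3). Eif4ebp1, a brake on cap-dependent initiation, had 1.54, 1.20 and 1.92 FPKM in wild-type cells, against 1.25, 0 and 0.393 FPKM in SKO cells. SKO replicate 2 is listed at 0, so no group mean is given. The groups overlapped, and the difference of -0.79 did not pass (limma adjusted p = 0.507).

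Of the cytosolic tRNA synthetases linked to ATF4 all 12 were tested and none passed. Of the 12, 4 had a difference above 0, beside 59.4% of all tested rows, and the median was -0.11. The sums of the 12 overlapped, at 97.5 to 152 FPKM in wild type and 99.6 to 128 FPKM in SKO. Mars1, for methionine, had 5.43 ± 2.17 FPKM in wild-type cells, against 1.88 ± 0.962 FPKM in SKO cells (SD, n = 3; difference -1.16, limma adjusted p = 0.329). Sars, for serine, had 7.18 ± 0.789 and 4.00 ± 0.846 FPKM (difference -0.72, limma adjusted p = 0.461). The groups of 3 of the 12, Mars1, Sars and Cars, did not overlap, beside 15.7% of all tested rows. The densest were Aars, at 33.8 ± 7.64 and 26.2 ± 5.59 FPKM, and Cars, at 23.8 ± 5.44 and 16.0 ± 4.44 FPKM.

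Of 9 genes for subunits of eIF2 and eIF2B, 8 were tested. A difference above 0 was found in 6, beside 59.4% of all tested rows, and the median was 0.12, or -0.031 under TMM-type scaling. Eif2s1, the alpha subunit that carries the phosphorylation site, had 35.7 ± 14.9 FPKM in wild-type cells, against 64.7 ± 29.6 FPKM in SKO cells (difference 0.82, limma adjusted p = 0.602). Eif2s3y, the Y-linked copy of the gamma subunit, had 39.8 ± 20.1 and 43.6 ± 14.3 FPKM, and the X-linked copy Eif2s3x, the member not tested, had a mean of 0.704 FPKM over all libraries. Eif2b5, the catalytic subunit of eIF2B, had 5.92 ± 1.87 and 4.20 ± 1.78 FPKM (difference -0.44, limma adjusted p = 0.719).

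Of 13 regulators of the kinases 12 were tested, 8 with a difference above 0, beside 59.4% of all tested rows, and the median was 0.19. The densest were Hspa5, the chaperone that holds EIF2AK3 inactive, at 350 ± 96.6 and 569 ± 215 FPKM (limma adjusted p = 0.654), and Abcf3, a relative of the yeast activator of GCN2, at 69.1 ± 13.6 and 53.2 ± 18.2 FPKM. The other branches of the unfolded protein response had 16 tested members of 18. A difference above 0 was found in 13, beside 59.4% of all tested rows, and the median was 0.45, or 0.32 under TMM-type scaling. Atf6b, a membrane-bound transcription factor, had 0.762, 1.31 and 3.78 FPKM in wild-type cells, against 6.54, 6.47 and 4.82 FPKM in SKO cells (difference 1.36, limma adjusted p = 0.295). Dnajb9, a chaperone of the endoplasmic reticulum, had 6.82 ± 4.18 and 17.0 ± 7.22 FPKM (limma adjusted p = 0.375). The groups of 3 of the 16, these and Xbp1, did not overlap, beside 15.7% of all tested rows. The densest members, Hsp90b1 at 722 ± 218 and 530 ± 213 FPKM and the secreted factor Manf at 318 ± 89.3 and 597 ± 237 FPKM, pointed opposite ways.

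Other mRNAs known to be translated through upstream reading frames when eIF2 is phosphorylated had 6 tested members of 7. Of the 6, 2 had a difference above 0, beside 59.4% of all tested rows, and the median was -0.05. Slc35a4 had 1.01, 2.45 and 1.20 FPKM in wild-type cells, against 4.47, 5.75 and 2.40 FPKM in SKO cells (difference 1.01, limma adjusted p = 0.390, unadjusted p = 0.0284). SKO replicate 3 lay within the wild-type range. Atf5, a relative of Atf4, had 1.78 ± 0.348 and 4.00 ± 2.64 FPKM (limma adjusted p = 0.569). Eprs, at 7.63 ± 0.943 and 7.42 ± 1.67 FPKM, and Ifrd1, at 5.09 ± 1.64 and 4.78 ± 0.993 FPKM, had the highest densities of this list.

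**Figure D4:**
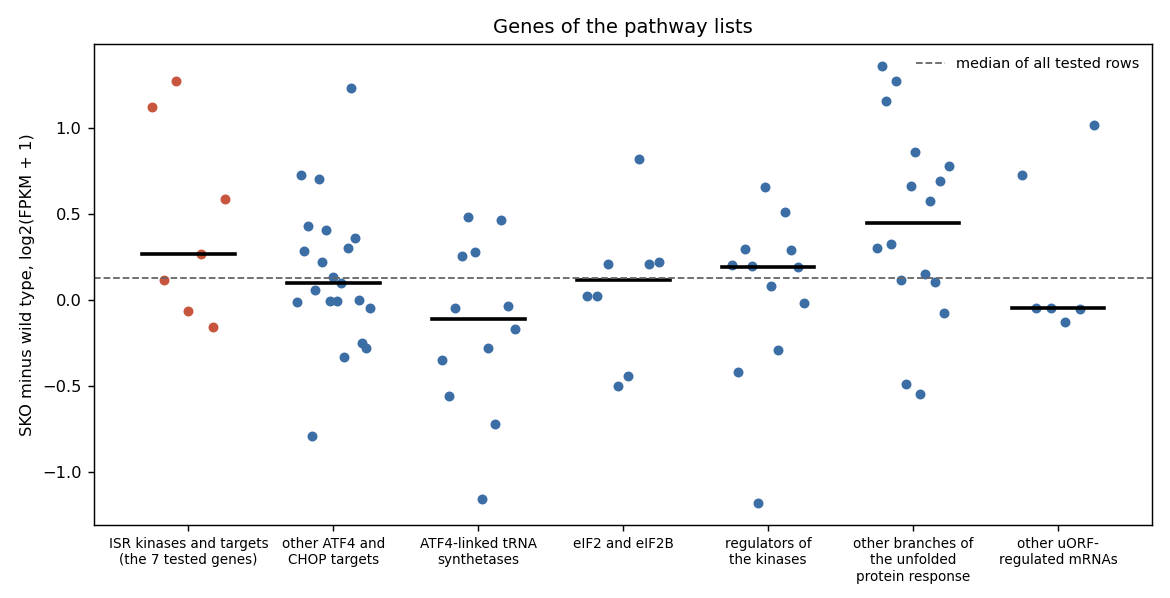
SKO minus wild-type difference on the log2(FPKM + 1) scale for every tested gene of the 10 stress response genes (red) and of the 6 other lists (blue); black bars are list medians and the dashed line is the median of all tested rows, 0.13. Medians run from -0.11 for the tRNA synthetases to 0.45 for the other branches of the unfolded protein response, and no single point passed the test.

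Summed markers of some other testis cells differed between the libraries of the genotypes. The 7 Leydig cell markers with a row, of 8, summed to 13.6 to 18.6 FPKM in wild-type cells, against 61.2 to 118 FPKM in SKO cells. The 5 Sertoli cell markers with a row, of 11, summed to 12.3 to 22.1 FPKM and 52.0 to 77.7 FPKM, and the 4 peritubular markers with a row, of 6, to 4.54 to 6.19 FPKM and 25.8 to 39.2 FPKM. None of these 16 genes was at 0 in any library. Gata1, with a mean of 0.911 FPKM, was not tested. Of the others only Dcn, a matrix proteoglycan of peritubular cells, passed the test (limma adjusted p = 0.0470). Under TMM-type scaling Dcn, the Sertoli marker Clu and the peritubular marker Acta2 passed (limma adjusted p = 0.0411 for each). The groups of Star, Lhcgr, Inha and Gata1 overlapped. The 5 macrophage markers with a row, of 6, overlapped in their sums, at 2.92 to 8.45 FPKM in wild type and 4.49 to 6.11 FPKM in SKO. The 4 globin genes summed to 50.4 to 110 FPKM in wild type and to less, 15.2 to 42.0 FPKM, in SKO. Spermatocyte markers, all 8 with a row, were denser and overlapped in their sums, at 115 to 207 FPKM in wild type and 122 to 243 FPKM in SKO. None of the 8 passed. The groups of 1 of them, Tex101, did not overlap, beside 15.7% of all tested rows (difference 1.26, limma adjusted p = 0.325). In SKO replicates 1, 2 and 3 Asns had 5.04, 22.0 and 11.9 FPKM, and the Leydig sum was 76.1, 61.2 and 118 FPKM. The Sertoli sum was 52.0, 64.3 and 77.7 FPKM in the same order, and the peritubular sum 33.0, 39.2 and 25.8 FPKM. The part of other cells in the values of Asns, Slc3a2 and the unfolded protein response genes was not tested, and in bulk samples a change in the number of cells and one in RNA per cell cannot be told apart.

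**Figure D5:**
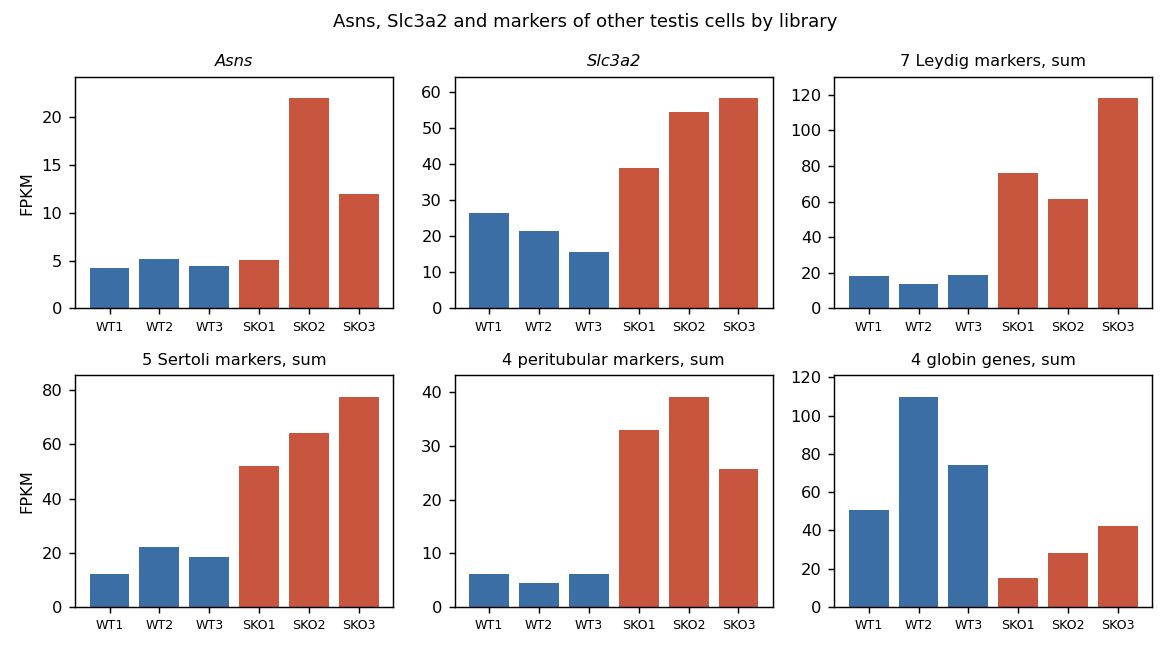
Density in FPKM by library of Asns, of Slc3a2 and of the summed markers of Leydig, Sertoli and peritubular cells and the globin genes, wild type in blue and Eif5a SKO in red, each bar 1 library. Every SKO bar of Slc3a2 and of the first 3 marker sums exceeds every wild-type bar, and the globin bars are reversed. For Asns, in FPKM, only the bars of SKO replicates 2 and 3 exceed every wild-type bar.

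By density per length over all 6 libraries the order of the mean log2(FPKM + 1) was Asns at 3.04, Atf4 at 1.86, Eif2ak1 at 1.66, Eif2ak2 at 1.41, Ppp1r15a at 1.32, Eif2ak4 at 1.03 and Ppp1r15b at 0.75. Ddit3 is not placed: with its values at 0 counted its mean was 3.37 with an SD of 2.96, above Asns, but Asns came first with a pseudocount of 0.1, without wild-type replicate 1, without SKO replicate 1 and without SKO replicate 3. Eif2ak2 and Ppp1r15a changed places without wild-type replicate 2 or SKO replicate 1, and Ppp1r15a and Eif2ak4 without SKO replicate 2. Neighbours, with Ddit3 set above Asns, were compared within libraries by a two-sided exact sign-flip permutation test, adjusted over 7 pairs. The order and its pairs come from the same values, and libraries of both genotypes were pooled, so these p-values only describe the order. Asns exceeded Atf4 in 6 of 6 libraries, by 1.19 ± 0.77 on the log2 scale (SD, n = 6; exact p = 0.0312, the smallest that 6 libraries allow, adjusted p = 0.219). A single pair adjusted over 7 cannot go below that value, so the adjusted test does not speak on this pair. The other 6 pairs had exact p-values of 0.281 to 0.812, so no difference was detected between those neighbours.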

How the data were processed

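The values are FPKM that the authors computed and deposited as 1 figure per gene symbol and library. Per the submitters' processing notes, cutadapt, Bowtie2, STAR and Cufflinks were used with mm10; their roles, the annotation and the handling of shared reads are not stated. FPKM are relative, so a few abundant rows move all others: the 3 densest rows held 24.6% to 46.4% of a library's sum. RefSeq protein-coding rows held 18.2% of the sum in SKO replicate 1 and up to 32.9% in SKO replicate 2. The factors of TMM-type scaling ran from 0.812 in wild-type replicate 1 to 1.31 in SKO replicate 2. Printed densities and SDs are not scaled by them, so shifts of whole libraries are part of the spread between replicates. Low values came in whole steps for 26.3% of 2898 low genes, too few to recover reads, so no count model was used.

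Rows whose mean reached 1 FPKM (15578 of 22770) were compared, SKO minus wild type, on log2(FPKM + 1) with limma 3.58.1 in R 4.3.3 (eBayes with a trend, two-sided, Benjamini-Hochberg over all tested rows), after a check on simulated data. Figures under 1e-06 were set to 0. Same-numbered libraries correlated in their deviations by 0.0926, 0.000158 and 0.0243, so numbers were not taken as pairs. Symbols, positions and promoter windows come from RefSeq (GRCm38.p6). The members and lists were chosen with earlier results of these data known. Named beside the members are, per list, the 2 genes with the smallest p and the 2 densest; other names were chosen after their values were seen.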

Additional observations from a re-analysis of the deposited data

How the results depend on the processing

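None of the 7 tested genes and none of the 73 tested list genes passed in any of the 15 alternatives: pseudocounts of 0.1 and 5, no filter or a minimum mean of 5 FPKM (which left Asns and Ddit3 of the 7), TMM-type scaling, quantile normalization, equal sums, eBayes without a trend, the replicate number as a block, and each library left out. The Atf4 difference of 0.12 turned to -0.012 under TMM-type scaling and to -0.022 with equal sums. In the same settings the median of all tested rows went from 0.13 to 0.0025 and to -0.020. The cause was not tested. Leaving out 1 library gave ranges of -0.12 to 0.42 for Atf4, -0.19 to 0.060 for Eif2ak1, -0.053 to 0.76 for Eif2ak2, -0.41 to 0.21 for Eif2ak4, -0.21 to 3.27 for Ddit3, 0.056 to 0.96 for Ppp1r15a and 0.66 to 1.62 for Asns. With the replicate block the Asns difference stayed 1.12 (limma adjusted p = 0.321) and no call changed. Over its alternatives the adjusted p of Asns ran from 0.168 to 0.728. Calls over all rows numbered 20 (85% higher in SKO) and moved to 159 under TMM-type scaling (74.8% higher), 448 after quantile normalization (55.6% higher), 86 at a mean of at least 5 FPKM, 4 with a pseudocount of 5, 5 with no filter, 5 with the block (80% higher) and 4 to 27 with 1 library left out. They were 18 with a pseudocount of 0.1, 16 with equal sums and 15 without a trend. With so few rows called in most settings, a count of 0 among 7 or 73 genes says little about them. The level order had 0 neighbouring pairs past the test under each alternative; with 5 libraries the smallest exact p is 0.0625, so none could pass, and with 6 a single pair adjusted over 7 could not. Depth limits all genes under 1 FPKM.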

Other observations

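The 5 protein-coding rows whose values came closest to those of Atf4, by the mean absolute difference of log2(FPKM + 1) over the 6 libraries among 10499 rows, were Tmem216 (0.131), Rps6kc1 (0.131), Gopc (0.153), Anxa11 (0.167) and Mocs2 (0.173). Tmem216, a gene of the ciliary transition zone, had 2.73, 1.91 and 3.93 FPKM in wild-type cells, against 1.56, 3.16 and 5.90 FPKM in SKO cells, against 2.32, 1.67 and 3.76 and 1.49, 3.14 and 4.23 FPKM for Atf4. These rows share their libraries and scaling with Atf4.

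Dazl, an RNA-binding protein gene, had the largest difference of the 4 tested spermatogonial markers and was chosen after its values were seen. It had 3.23 ± 0.874 FPKM in wild-type cells, against 20.0 ± 11.1 FPKM in SKO cells (SD, n = 3 per group; difference 2.17, limma adjusted p = 0.157). The groups of the other tested markers of this list overlapped, with differences of 0.63 for Uchl1, 0.15 for Gfra1 and -0.05 for Kit, and none passed.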
